A study of Mus musculus with 8 samples.

Results

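The pyruvate dehydrogenase complex and the enzymes that switch it on and off were examined through 10 genes of the TPM table, chosen by symbol: the kinases Pdk1, Pdk2, Pdk3 and Pdk4, the phosphatases Pdp1 and Pdp2, and the subunits Pdha1, Pdhb, Dlat and Dld. These 10 genes are part of 55414 listed, and each was found once. RNA was sequenced from B16F10 cells, a mouse melanoma line grown in culture, in 4 groups of 2 libraries each, all collected after 24 h. WT cells and CypD KO cells, in which Ppif was disrupted with CRISPR/Cas9 and clones were selected with puromycin, were kept at 21% O2. Control cells stably carrying the empty pcDNA vector, and cells labelled CypD OE that carry Ppif on the same vector, were kept at 1% O2. Ppif encodes cyclophilin D (CypD), the mitochondrial regulator of the permeability transition pore. The lines at 1% O2 were selected with G418 as resistant clones. For these lines and for the knockout, the number of clones is not given in the sources used here. Oxygen and line change together between the 1% and the 21% groups.

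The complex sits in the mitochondrial matrix and turns pyruvate from glycolysis into acetyl-CoA, which feeds the citric acid cycle. Its E1 enzyme is built from the subunits encoded by Pdha1 and Pdhb, Dlat encodes the E2 acetyltransferase, and Dld encodes the E3 dihydrolipoamide dehydrogenase that several related complexes share. PDK enzymes phosphorylate the E1 alpha subunit and turn the complex off, and the PDP phosphatases remove the phosphate and turn it on again. Pdk1 is a textbook target of HIF1, the transcription factor stabilised at low oxygen, and its rise diverts pyruvate towards lactate. Pdk4 is best known from fasted muscle, heart and liver. Protein and phosphorylation were not measured here, so every value below is a transcript level.

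Promoter sequences are shown because Pdk1 and Pdk3 were the abundant kinase genes and differed between groups in each main comparison, and Pdha1 encodes the subunit they phosphorylate. Sequences came from the RefSeq table (build GRCm38.p6), which held promoters of 9 of the 10 genes, Pdp1 being the exception. Each run below is given 5′ to 3′ on the strand of the gene, from 250 bases before the start site to 20 bases after it, and was located in GRCm39 by an exact match. The Pdk1 run lies at chr2:71703318-71703587 on the plus strand, the Pdk3 run at chrX:92875737-92876006 on the minus strand, and the Pdha1 run at chrX:158921407-158921676 on the minus strand. Capitals mark ACGTG or GCGTG, the core letters of the hypoxia response element, read on either strand, so that CACGT and CACGC on the printed strand count as well.

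Pdk1: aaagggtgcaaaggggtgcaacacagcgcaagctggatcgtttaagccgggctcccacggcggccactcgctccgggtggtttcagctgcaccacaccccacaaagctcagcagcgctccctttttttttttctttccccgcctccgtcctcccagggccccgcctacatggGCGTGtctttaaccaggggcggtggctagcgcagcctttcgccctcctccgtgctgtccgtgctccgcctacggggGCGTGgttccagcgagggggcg
Pdk3: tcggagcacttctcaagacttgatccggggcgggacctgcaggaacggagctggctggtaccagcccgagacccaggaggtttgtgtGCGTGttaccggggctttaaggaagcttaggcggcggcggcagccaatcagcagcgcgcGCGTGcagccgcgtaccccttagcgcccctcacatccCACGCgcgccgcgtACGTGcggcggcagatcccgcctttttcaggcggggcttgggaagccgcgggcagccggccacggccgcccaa
Pdha1: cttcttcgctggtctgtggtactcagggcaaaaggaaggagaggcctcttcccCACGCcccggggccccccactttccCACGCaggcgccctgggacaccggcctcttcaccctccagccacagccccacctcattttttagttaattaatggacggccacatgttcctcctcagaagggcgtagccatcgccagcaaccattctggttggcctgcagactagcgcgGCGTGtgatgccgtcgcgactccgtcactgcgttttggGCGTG

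In the Pdk1 run GCGTG stood at 2 places, beginning 78 and 2 bases before the start site. The Pdk3 run held ACGTG 53 bases before the start site and GCGTG 163, 104 and 67 bases before it, the last on the opposite strand. GCGTG was found 4 times for Pdha1, beginning 197 and 172 bases before the start site on the opposite strand, 23 bases before it, and 16 bases after it. Over whole windows of 300 bases, ACGTG or GCGTG occurred in 43.8% of 32851 mouse promoters, ACGTG in 19.6% and GCGTG in 32.4%, some of them holding both. Pdk2, Pdk4, Pdp2 and Pdhb also had one or the other in a promoter window, and Dlat and Dld had neither. The ACGTG matches of Pdk2 and Pdp2 overlapped on opposite strands, and further RefSeq promoters of Pdk1 and Pdk2 held no match. A match of 5 letters is a description of the sequence and shows no binding. GENCODE transcripts begin up to 80 bases upstream of the RefSeq start site for Pdk1 and up to 633 bases upstream for Pdk3, so the windows follow RefSeq only.

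Ppif was checked first. WT libraries had 50.68 and 49.99 TPM and CypD KO libraries 10.44 and 12.11 TPM, with the knockout mean at 22.4% of WT (log2 fold change −2.07, SE 0.07, limma padj = 3.81e-06). Control libraries had 44.59 and 42.25 TPM, and libraries labelled CypD OE had 50.29 and 49.28 TPM. The groups did not overlap, but the ratio of means was only 1.15 and the difference did not pass the threshold (log2 fold change 0.19, SE 0.07, limma padj = 0.0794). At the transcript level, directions drawn from these libraries therefore rest on their label. The paper's methods report raised CypD protein in the resistant clones by western blot, a measure made apart from these libraries. The labels write the insert as PPIF and the methods as Ppif, and the species of its sequence is not given in the sources used here, so mouse Ppif may not count all of it. Melanocyte lineage markers were above 1 TPM in 8 of 8 cases, and their summed level ran from 12790 to 21390 TPM over the libraries. By the steps between low values, 1 fragment per kilobase of effective length was worth 0.0815 to 0.098 TPM, which sets the counting precision for the rarest members. Neither the labels nor the methods state that the replicates were separate cultures, so p-values measure the spread between these libraries, which may be technical. All differences are on the log2(TPM + 1) scale, which understates changes of low genes, and an exact permutation test of 2 libraries against 2 could not give a p below 0.333. A lack of overlap between groups is therefore only a description below, and the share of all genes without overlap was not counted.

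The first comparison asked what loss of CypD does at normal oxygen. Of the 9 members tested, 8 passed the threshold between CypD KO and WT cells, with 4 higher and 4 lower, where 48.4% of all 13526 genes tested were called, 30.1% higher and 18.4% lower. Higher genes made up 62.1% of all those calls, and 49.4% after median-of-ratios rescaling. The kinases Pdk1, Pdk2 and Pdk3 and the phosphatase Pdp1 were higher. Pdk2 is in these counts only because its level in the knockout libraries let it be tested, so its direction is no finding. The phosphatase Pdp2 and the subunits Pdha1, Pdhb and Dlat were lower, while Dld did not pass. Over the members the median log2 fold change was −0.07, beside 0.09 over all genes. As in any bulk library, fewer cells with a transcript and less of it per cell cannot be told apart.

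Among the kinases, Pdk1 (ENSMUSG00000006494; GRCm39 chr2:71703488-71734202, plus strand) rose most. WT libraries had 7.35 and 7.26 TPM of it, and CypD KO libraries 63.35 and 60.39 TPM. Every knockout library was far above every WT library. The ratio of the means was 8.47 (log2 fold change 2.92, SE 0.24, limma padj = 0.000119). In this and the next 2 comparisons the calls of Pdk1 and Pdk3 held under every alternative tried.

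Pdk3 (ENSMUSG00000035232; chrX:92789513-92876389, minus strand), the most abundant kinase gene in WT cells, was listed at 32.25 and 34.63 TPM there and at 69.79 and 63.93 TPM in CypD KO libraries. Both knockout libraries again lay above both WT libraries. The ratio of means was 2.0, for a log2 fold change of 0.98 (SE 0.06, limma padj = 3.73e-05). Pcyt1b, a gene of phosphatidylcholine synthesis that overlaps Pdk3 on the opposite strand, had 1.32 and 1.14 TPM in WT libraries against 8.75 and 6.81 TPM in CypD KO libraries. Whether the counting used strand is not given in the sources used here, and the part of such reads in the Pdk3 value was not tested. On group means Pcyt1b went from 1.23 to 7.78 TPM while Pdk3 went from 33.4 to 66.9 TPM.

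Pdk2 (ENSMUSG00000038967; chr11:94914929-94932242, minus strand) was rare, at 0.52 and 0.14 TPM in WT libraries and 1.85 and 1.56 TPM in CypD KO libraries. These levels correspond to an estimated 24.0 and 5.93 fragments in WT and 89.4 and 70.3 in CypD KO libraries. The knockout libraries were the highest of the series, and Pdk2 passed the filter on low values only through them, so that its call (log2 fold change 1.04, SE 0.22, limma padj = 0.00713) describes a gene that had to differ to be tested. It also overlaps Samd14, which lies on the opposite strand and reached 9.5 TPM, more than Pdk2 itself in every group.

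Pdk4 (ENSMUSG00000019577; chr6:5483097-5496339, minus strand) was listed at 0 in every library except CypD KO replicate 2, where it stood at 0.03 TPM, or about 1.16 fragments. It failed the filter and was not tested. At this depth 3 fragments on Pdk4 would be 0.0689 to 0.0825 TPM depending on the library, with its longest annotated transcript taken as the length. With a shorter transcript they would be worth more TPM. The range is thus a rough guide to what could have been missed by counting error alone.

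**Figure D1:**
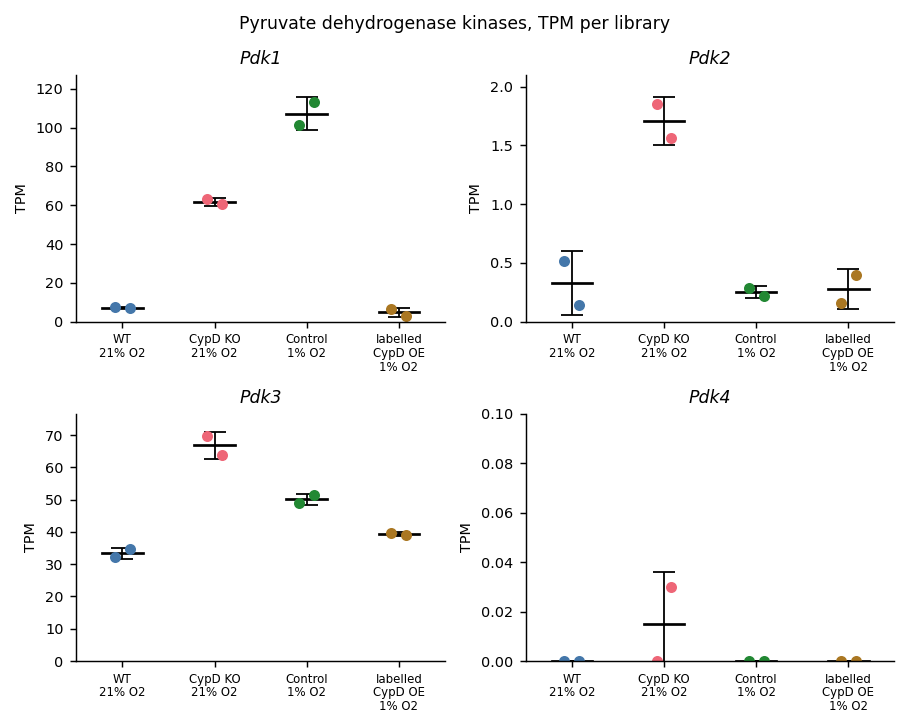
TPM of Pdk1, Pdk2, Pdk3 and Pdk4 in each of the 8 libraries; points are libraries, horizontal lines are group means and whiskers are ± 1 SD (n = 2). Pdk1 stands between 60.39 and 113.09 TPM in CypD KO and Control libraries and between 3.19 and 7.35 TPM in the others, and Pdk4 is at or near 0 throughout; each panel has its own axis.

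The phosphatases moved in opposite directions in CypD KO cells. Pdp1 (ENSMUSG00000049225; chr4:11957712-11966468, minus strand), which encodes a catalytic subunit of the calcium-stimulated phosphatase, stood at 3.01 and 2.92 TPM in WT libraries, against 7.60 and 8.21 TPM in CypD KO libraries. The ratio of means was 2.67 (log2 fold change 1.17, SE 0.10, limma padj = 0.000147). Pdp2 (ENSMUSG00000048371; chr8:105318052-105325671, plus strand), which encodes the other catalytic isoform, was listed at 8.85 and 9.24 TPM in WT libraries and 5.87 and 5.76 TPM in CypD KO libraries. For both genes the libraries of the 2 groups did not overlap. Pdp2 in knockout cells was at 64.3% of WT (log2 fold change −0.56, SE 0.09, limma padj = 0.00195).

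The summed TPM of both phosphatases was 11.9 and 12.2 in WT libraries and 13.5 and 14.0 in CypD KO libraries. Pdp1 made up 25.4% and 24.0% of that sum in WT libraries and 56.4% and 58.8% in CypD KO libraries. The more abundant phosphatase transcript was therefore Pdp2 in WT cells and Pdp1 in CypD KO cells, with a sum that differed far less than its parts.

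Of the E1 subunits, Pdha1 (ENSMUSG00000031299; chrX:158904237-158921426, minus strand), which carries the regulated phosphorylation sites, stood at 122.46 and 125.53 TPM in WT libraries, against 93.67 and 90.45 TPM in CypD KO libraries. The knockout mean was 74.2% of WT (log2 fold change −0.43, SE 0.04, limma padj = 0.000217), and the libraries did not overlap. Map3k15, which overlaps Pdha1 on the opposite strand, had 8.37 and 7.79 TPM in WT libraries against 10.91 and 10.96 TPM in CypD KO libraries. Its part in the Pdha1 value was not tested. Pdhb (ENSMUSG00000021748; chr14:14296739-14304802, plus strand), the E1 beta subunit, was listed at 100.62 and 110.99 TPM in WT libraries and 86.80 and 90.02 TPM in CypD KO libraries. Pxk, which overlaps Pdhb on the opposite strand, had 6.38 and 7.34 TPM in WT libraries against 11.22 and 11.42 TPM in CypD KO libraries. Its part in the Pdhb value was not tested. Pdhb was lower in the knockout without overlap, and the size was modest (log2 fold change −0.26, SE 0.08, limma padj = 0.0327). That call was lost with no filter on low TPM (limma padj = 0.0728), without the trend (0.0647) and without WT replicate 2 (0.162), CypD KO replicate 1 (0.138) or CypD KO replicate 2 (0.083).

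Dlat (ENSMUSG00000000168; chr9:50543457-50571277, minus strand), the E2 core, was listed at 94.92 and 91.16 TPM in WT libraries and 78.34 and 78.31 TPM in CypD KO libraries. The 2 knockout libraries were nearly equal and both were below WT (log2 fold change −0.25, SE 0.08, limma padj = 0.0393). That call was lost with no filter on low TPM (limma padj = 0.0827), without the trend (0.073) and with a replicate block (0.0597). It was also lost with any 1 of the 4 libraries of the comparison left out, and with either CypD OE library left out. The log2 fold change was −0.22 without WT replicate 1, −0.27 without WT replicate 2 and −0.25 without either CypD KO replicate. Dld (ENSMUSG00000020664; chr12:31379323-31401452, minus strand), the shared E3 subunit, was listed at 183.89 and 176.44 TPM in WT libraries and 176.78 and 165.94 TPM in CypD KO libraries. Its libraries overlapped, and the difference did not pass (log2 fold change −0.07, 95% interval −0.18 to 0.03, limma padj = 0.219). After median-of-ratios rescaling Dld did pass as lower (log2 fold change −0.17, limma padj = 0.0119). Lamb1, a laminin gene on the opposite strand that overlaps Dld, had 6.21 and 5.74 TPM in WT libraries against 39.73 and 38.45 TPM in CypD KO libraries, and its part in the Dld value was not tested.

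Markers of other cell types were read beside these differences. The fibroblast list summed to 15.6 and 17.7 TPM in WT and 34.16 and 37.19 TPM in CypD KO libraries, with 3 of its 7 genes at 1 TPM or more in any library. Most of that came from Postn, at 34.77 and 31.22 TPM in CypD KO libraries, whereas Dcn and Thy1 were at 0 in every library and Col1a2 was lower in CypD KO than in WT libraries. The leukocyte list summed to 3.45 and 3.75 TPM in WT and 21.92 and 23.39 TPM in CypD KO libraries, with 1 of 6 genes at 1 TPM or more. That gene was Cd68, a lysosomal membrane protein gene, while Ptprc, which marks all leukocytes, did not exceed 0.02 TPM in any library. Keratinocyte markers stayed at or below 0.06 TPM in sum and endothelial markers at or below 1.18 TPM. The melanocyte lineage sum was lower in CypD KO libraries, at 12790 and 12960 TPM, than in WT libraries, at 15940 and 16040 TPM. Tyrp1, Dct, Pmel and Mlana make up most of that sum and were lower in CypD KO libraries, whereas Tyr stood at 37.44 and 41.25 TPM in WT and 167.01 and 147.1 TPM in CypD KO libraries, Slc45a2 was higher as well, at 284.86 and 270.23 against 370.94 and 356.33 TPM, and the Mitf values overlapped. The part of these differences in the members' values was not tested.

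The second comparison set cells labelled CypD OE against Control cells, both at 1% O2. Of the 9 members tested, 3 passed, 1 higher and 2 lower, where 37.4% of all genes were called, 19% higher and 18.3% lower. Pdk1 and Pdk3 were lower and Pdha1 was higher. The members had a median log2 fold change of 0.02, beside 0.00 over all genes. The melanocyte lineage sum also differed, at 20830 and 21390 TPM in Control libraries and 13770 and 13950 TPM in libraries labelled CypD OE. Tyrp1, Dct, Pmel, Slc45a2 and Mitf were lower in the latter. Sox10 was higher there, at 269.49 and 274.34 TPM against 238.19 and 236.21 TPM in Control libraries. Mlana was slightly higher, at 2033.73 and 2066.68 against 1980.83 and 2022.66 TPM, and the Tyr values overlapped. Of the other lists, the fibroblast sum was 18.98 to 20.97 TPM in Control and 9.23 to 11.35 TPM in libraries labelled CypD OE, and the leukocyte sum, again Cd68, was 4.2 to 4.81 against 1.13 to 1.91 TPM. The part of these differences in the members' values was not tested here either.

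Pdk1 was listed at 101.13 and 113.09 TPM in Control libraries and at 6.60 and 3.19 TPM in libraries labelled CypD OE. No library of one group came near the other, although the 2 libraries labelled CypD OE differed from each other more than those of any other group did in proportion. Their mean was 4.57% of Control (log2 fold change −4.26, SE 0.24, limma padj = 4.17e-05). Pdk3 was listed at 48.94 and 51.33 TPM in Control libraries and at 39.83 and 38.97 TPM in libraries labelled CypD OE. That difference was much smaller, at 78.6% of Control (log2 fold change −0.34, SE 0.06, limma padj = 0.00569), with no overlap. Pdk2 was at 0.29 and 0.22 TPM against 0.16 and 0.40 TPM, or an estimated 7.96 to 20.3 fragments in these libraries, and the difference did not pass (log2 fold change 0.02, 95% interval −0.49 to 0.54).

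Pdha1 was listed at 95.11 and 99.90 TPM in Control libraries and at 108.21 and 105.62 TPM in libraries labelled CypD OE. The latter were higher without overlap, but by a log2 fold change of only 0.13 (SE 0.04, limma padj = 0.0422), and the call was lost with the 4 libraries of the comparison alone (limma padj = 0.0822) without the trend (0.106) and without any single library except Control replicate 2 (at most 0.184, without Control replicate 1). Map3k15 had 11.24 and 10.96 TPM in Control libraries against 7.54 and 7.29 TPM in libraries labelled CypD OE. Its part in the Pdha1 value was not tested here either. Pdhb stood at 88.22 and 94.41 TPM in Control libraries against 85.94 and 98.39 TPM in libraries labelled CypD OE, with overlap. Dlat stood at 62.79 and 74.26 TPM in Control libraries and 80.18 and 74.94 TPM in libraries labelled CypD OE. The Control libraries were the more spread pair, and the difference did not pass (log2 fold change 0.18, 95% interval −0.01 to 0.37, limma padj = 0.119), although without Control replicate 2 it did (limma padj = 0.0164).

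Dld stood at 146.24 and 153.00 TPM in Control libraries and at 146.55 and 147.42 TPM in libraries labelled CypD OE, with overlap. Pdp1 stood at 3.49 and 3.4 TPM in Control libraries and at 4.33 and 4.35 TPM in libraries labelled CypD OE. Both of the latter were higher, and the difference missed the threshold (log2 fold change 0.26, 95% interval 0.02 to 0.51 before adjustment, limma padj = 0.0849) but passed it when the trend was left out (limma padj = 0.015). Pdp2 stood at 7.17 and 7.38 TPM against 7.32 and 7.84 TPM, with overlap. For Pdhb, Dld and Pdp2 the 95% intervals of the log2 fold change were −0.18 to 0.20, −0.13 to 0.08 and −0.16 to 0.26.

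The third comparison set Control cells at 1% O2 against WT cells at 21% O2, in which oxygen and the vector line cannot be told apart. Of the 9 members tested, 5 passed, 2 higher and 3 lower, where 24.2% of all genes were called, 12.1% higher and 12.1% lower. Pdk1 and Pdk3 were higher, and Pdha1, Dlat and Dld were lower. Over the members the median log2 fold change was −0.21, beside 0.01 over all genes. This comparison shares its Control libraries with the second and its WT libraries with the first, so the comparisons are not independent.

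Pdk1 was 14.7 times as high in Control as in WT libraries (log2 fold change 3.70, SE 0.24, limma padj = 0.000195), the largest difference among the members here. Pdk3 was 1.5 times as high (log2 fold change 0.57, SE 0.06, limma padj = 0.0013). Pdk2 did not differ detectably at its depth (log2 fold change −0.07, limma padj = 0.852). The higher kinase level of Control cells thus lay in Pdk1 and, to a smaller extent, in Pdk3.

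The subunit genes lay below WT by smaller amounts. Control was at 78.6% of WT for Pdha1 (log2 fold change −0.34, SE 0.04, limma padj = 0.00185). For Dlat it was 73.7% (log2 fold change −0.44, SE 0.08, limma padj = 0.00888), a call that was lost with the 4 libraries of the comparison alone (limma padj = 0.0549) and without WT replicate 1 (0.0512). Dld was at 83.1% of WT (log2 fold change −0.27, SE 0.04, limma padj = 0.00646). Pdhb missed the threshold (log2 fold change −0.21, limma padj = 0.0982). The phosphatase Pdp2 missed it too (log2 fold change −0.28, limma padj = 0.0591) and passed without the trend (0.0223), and Pdp1 showed no call (0.16, limma padj = 0.291).

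**Figure D2:**
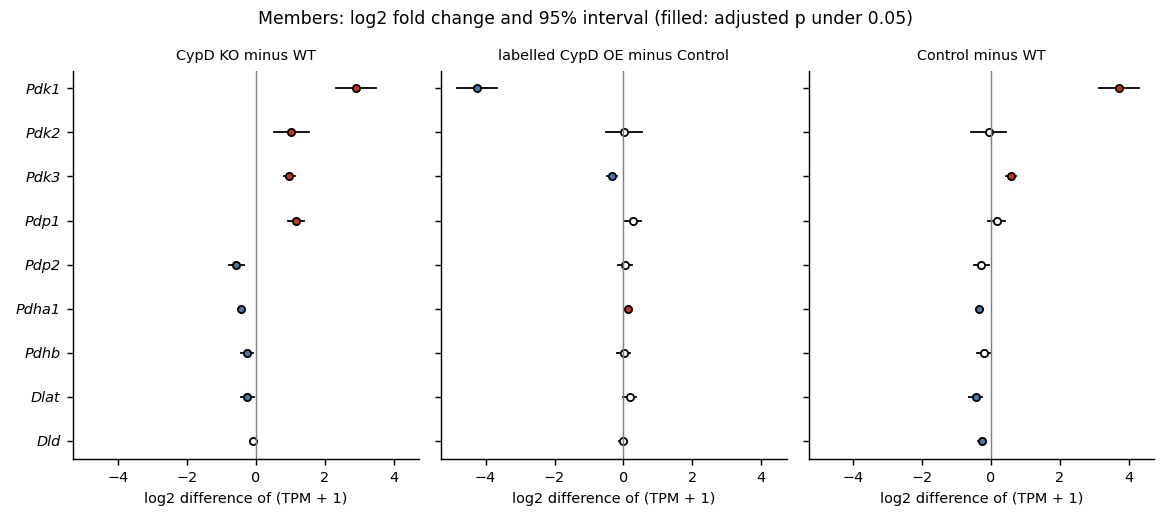
Log2 difference of (TPM + 1), horizontal axis, for the 9 members tested in 3 comparisons; points are limma estimates, lines are 95% intervals before adjustment, and filled points passed an adjusted p of 0.05 (red higher, blue lower). Pdk1 lies at 2.92, −4.26 and 3.70 and stands apart from the other members, which lie between −0.56 and 1.17.

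**Figure D3:**
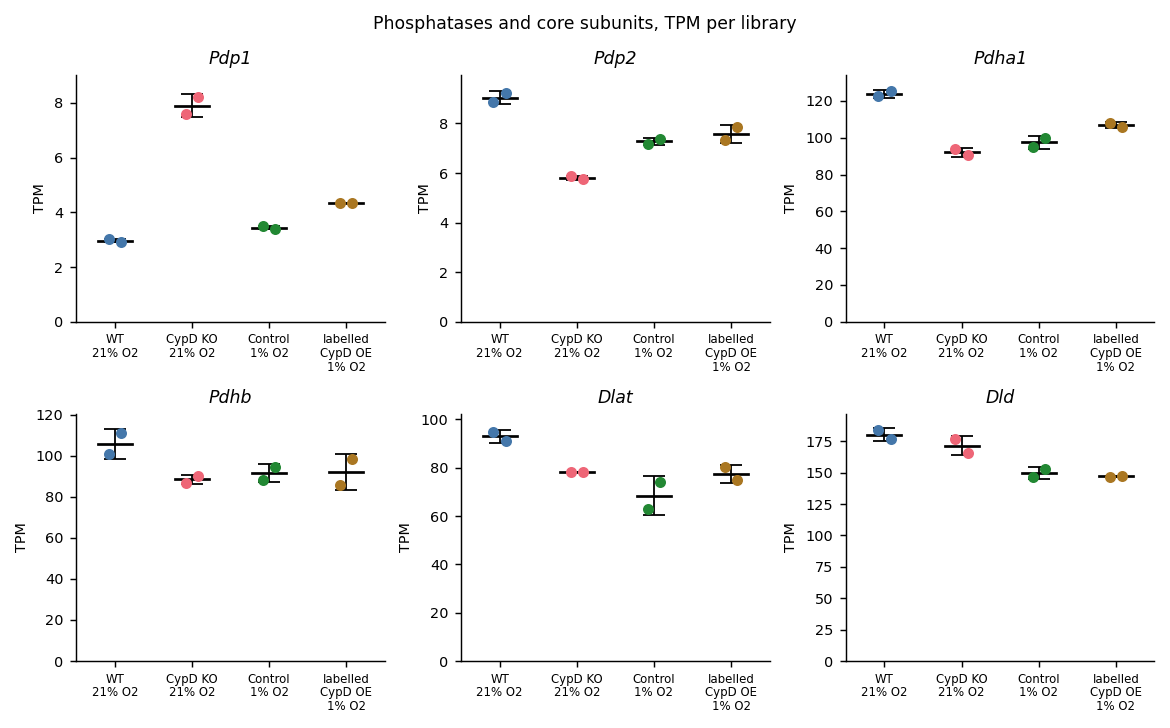
TPM of Pdp1, Pdp2, Pdha1, Pdhb, Dlat and Dld in each library; points are libraries, horizontal lines are group means and whiskers are ± 1 SD (n = 2), and each panel has its own axis from 0. Pdp1 is highest in CypD KO libraries (7.60 and 8.21 TPM), Pdp2 is lowest there, and the subunit genes are highest on average in WT libraries.

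Set in order over all 4 groups, Pdk1 was highest in Control cells (107.1 ± 8.46 TPM, SD, n = 2), then in CypD KO cells (61.9 ± 2.09), then in WT cells (7.31 ± 0.06) and in cells labelled CypD OE (4.90 ± 2.41). The step from Control to CypD KO passed (limma padj = 0.0384) and so did that from CypD KO to WT, whereas WT and CypD OE could not be told apart (log2 fold change −0.56, limma padj = 0.139). Knockout cells at 21% O2 thus reached 57.8% of the Pdk1 level of Control cells at 1% O2. Pdk3 was highest in CypD KO cells (66.9 ± 4.14 TPM), followed by Control (50.1 ± 1.69), CypD OE (39.4 ± 0.608) and WT cells (33.4 ± 1.68), and each step passed the threshold. The 2 abundant kinase genes therefore did not rank the groups alike: Control cells led for Pdk1 and CypD KO cells for Pdk3.

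Pdp1 was higher in CypD KO cells (7.91 ± 0.431 TPM) than in the next group, CypD OE (4.34 ± 0.014), by a limma padj of 0.00116, and no further step passed. From its lowest group to the one above, CypD KO to Control, Pdp2 differed with a limma padj of 0.0373, and its other steps did not pass. Pdha1 was highest in WT cells (124.0 ± 2.17 TPM), then in CypD OE cells (106.9 ± 1.83), and the step between them passed (limma padj = 0.00999), while Control and CypD KO cells at the low end did not differ detectably. For Pdhb no step passed. Dlat was higher in WT cells than in the next group, CypD KO (limma padj = 0.0393), a call lost with any 1 library of these groups left out. Dld was divided between the 21% and the 1% O2 groups, where oxygen and line cannot be told apart. WT and CypD KO cells, at 180.2 ± 5.27 and 171.4 ± 7.67 TPM, lay above Control and CypD OE cells, at 149.6 ± 4.78 and 147.0 ± 0.615 TPM, and only the step between these pairs passed (limma padj = 0.0112).

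Across the remaining pairs, cells labelled CypD OE differed from WT cells in 4 members, 2 higher and 2 lower, where 27.7% of all genes were called. Pdk3 and Pdp1 were higher (log2 fold changes 0.23 and 0.43) and Pdha1 and Dld were lower (−0.21 and −0.29). CypD KO cells differed from Control cells in 6 members where 44% of genes were called, with Pdk2, Pdk3, Pdp1 and Dld higher and Pdk1 and Pdp2 lower. Against cells labelled CypD OE the knockout differed in 7 members, 5 higher and 2 lower, where 48.9% of genes were called. Pdk2 is among the higher members in both counts, although it was tested only because of its level in the knockout libraries, so its direction there is no finding.

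TPM is scaled to transcript length, so levels of the kinase genes can be set beside each other. Pdk1 made up 18.3% and 17.3% of the summed kinase TPM in WT libraries, 46.9% and 48.0% in CypD KO libraries, 67.3% and 68.7% in Control libraries, and 14.2% and 7.50% in libraries labelled CypD OE. Pdk3 supplied nearly all the rest. Its share was 80.4% and 82.4% in WT, 51.7% and 50.8% in CypD KO, 32.6% and 31.2% in Control, and 85.5% and 91.6% in libraries labelled CypD OE. Pdk3 was thus the leading kinase transcript in WT, CypD KO and CypD OE cells, narrowly so in the knockout, and Pdk1 in Control cells. Knockout means were 66.9 TPM for Pdk3 and 61.9 TPM for Pdk1. Pcyt1b, on the opposite strand of Pdk3, stood at a mean of 7.78 TPM there, and its part in that lead was not tested. No test was made on these shares.

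The summed kinase level was 40.1 and 42.0 TPM in WT, 135.0 and 125.9 TPM in CypD KO, 150.4 and 164.6 TPM in Control, and 46.6 and 42.6 TPM in libraries labelled CypD OE. Divided by the phosphatase sum it gave ratios of 3.38 and 3.46 in WT, 10.02 and 9.01 in CypD KO, 14.1 and 15.3 in Control, and 4.0 and 3.49 in libraries labelled CypD OE. The CypD KO and Control libraries lay well above the other 4 on both measures. Relative to Pdha1, the gene of the subunit they act on, kinase transcripts stood at 0.328 and 0.335 in WT, 1.44 and 1.39 in CypD KO, 1.58 and 1.65 in Control, and 0.431 and 0.403 in libraries labelled CypD OE. The kinase sum thus exceeded Pdha1 in TPM in CypD KO and Control libraries and stayed below it in the other 4.

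**Figure D4:**
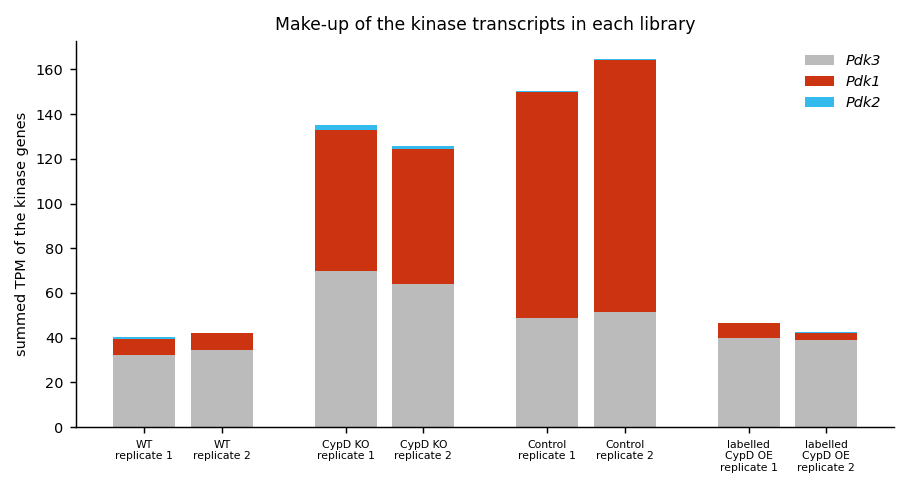
Summed TPM of the kinase genes in each of the 8 libraries, vertical axis from 0, stacked as Pdk3 (grey), Pdk1 (red) and Pdk2 (blue); Pdk4 at 0.03 TPM or less is too small to draw. The sum is 125.9 to 164.6 TPM in CypD KO and Control libraries and 40.1 to 46.6 TPM in the others, and most of the difference is the Pdk1 segment.

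The subunits kept closer proportions. Pdhb over Pdha1 ran from 0.794 to 0.995 over the 8 libraries and Dlat over Pdha1 from 0.660 to 0.866. Dld, which also serves other complexes, was above Pdha1 in every library, at 1.5 and 1.41 times in WT, 1.89 and 1.84 in CypD KO, 1.54 and 1.53 in Control, and 1.35 and 1.40 in libraries labelled CypD OE. The ratio was highest in CypD KO libraries, in which Pdha1 was called lower than in WT and Dld was not. After median-of-ratios rescaling Dld was called lower there as well, and the part of Lamb1 in its value was not tested.

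Other genes around the complex were taken from 4 lists holding 37 genes, of which 32 were tested and Pdha2, Pklr, Ldhd, Ogdhl and Acss1 were too low. Between CypD KO and WT cells 8 were higher and 10 lower, or 18 of 32 beside 48.4% of all genes. For cells labelled CypD OE against Control cells the counts were 6 higher and 8 lower, or 14 of 32 beside 37.4%, a total that fell to 8 when CypD OE replicate 2 was left out. Control against WT cells gave 3 higher and 8 lower, or 11 of 32 beside 24.2%.

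Of the 5 tested genes of assembly and cofactors reported here, 2 fell in CypD KO against WT cells and 3 did not pass. In that comparison 48.4% of all genes were called. Pdhx, which encodes the protein that anchors E3 to the E2 core, fell from 54.51 and 55.61 TPM in WT to 39.33 and 37.92 TPM in CypD KO libraries (log2 fold change −0.50, SE 0.09, limma padj = 0.00352). Lias, which makes the lipoyl group that E2 carries, also fell (log2 fold change −0.53, SE 0.13, limma padj = 0.0155), a call lost without WT replicate 1, WT replicate 2 or CypD KO replicate 2 (limma padj of up to 0.0848). Pdhx and Lias were lower in Control than in WT cells as well (log2 fold changes −0.51 and −0.52, limma padj = 0.00819 and 0.0323), or 2 of the 5 beside 24.2% of all genes. There the Lias call was lost without any single library of the 2 groups (limma padj of up to 0.132, without Control replicate 2), and that of Pdhx with the 4 libraries of the comparison alone (0.0549). Between cells labelled CypD OE and Control cells limma called 0 of the 5 at the adjusted threshold, beside 37.4% of all genes. Of these 5, only Pdhx had an unadjusted p under 0.05.

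Genes that supply pyruvate or send it elsewhere showed the widest range, with 14 tested. Slc16a3, the lactate exporter MCT4, stood at 7.89 and 7.90 TPM in WT, 27.46 and 30.17 in CypD KO, 177.44 and 196.98 in Control, and 0.42 and 1.36 in libraries labelled CypD OE. Ldha, which reduces pyruvate to lactate, stood at 1277 and 1236 TPM in WT, 2215 and 2167 in CypD KO, 3706 and 3853 in Control, and 948 and 895 in libraries labelled CypD OE. The groups of both genes stood in the order of the Pdk1 means, Control above CypD KO above WT above CypD OE, with no overlap. For Pdk1 the step from WT to CypD OE had not passed. For Slc16a3 and Ldha that step and the one from Control to CypD KO were not read. Log2 fold changes of Slc16a3 were 1.74 in CypD KO against WT (SE 0.21, limma padj = 0.000677), −6.68 in cells labelled CypD OE against Control (limma padj = 3.36e-06) and 4.40 in Control against WT. Pkm, the pyruvate kinase that makes pyruvate, stood at a mean of 1338 TPM in WT, 2434 in CypD KO, 3191 in Control and 1071 in cells labelled CypD OE.

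In the same list 6 genes were higher and 2 lower in CypD KO cells, or 8 of 14 beside 48.4% of all genes. Slc16a7, which encodes a further monocarboxylate carrier, MCT2, rose from a mean of 0.53 to 3.68 TPM (log2 fold change 1.61, SE 0.17, limma padj = 0.000379). Gpt2, which converts pyruvate and alanine into each other in mitochondria, rose from 5.64 to 11.2 TPM (log2 fold change 0.89, limma padj = 0.00161). For cells labelled CypD OE against Control cells 4 were higher and 6 lower, or 10 of 14 beside 37.4% of all genes. Ldha was at a log2 fold change of −2.04 (limma padj = 4.57e-07) and Pkm at −1.57 (limma padj = 3.59e-07). Control against WT cells gave 3 genes called, or 3 of 14 beside 24.2% of all genes. All of them were higher: Slc16a3, Ldha (log2 fold change 1.59) and Pkm (1.25).

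**Figure D5:**
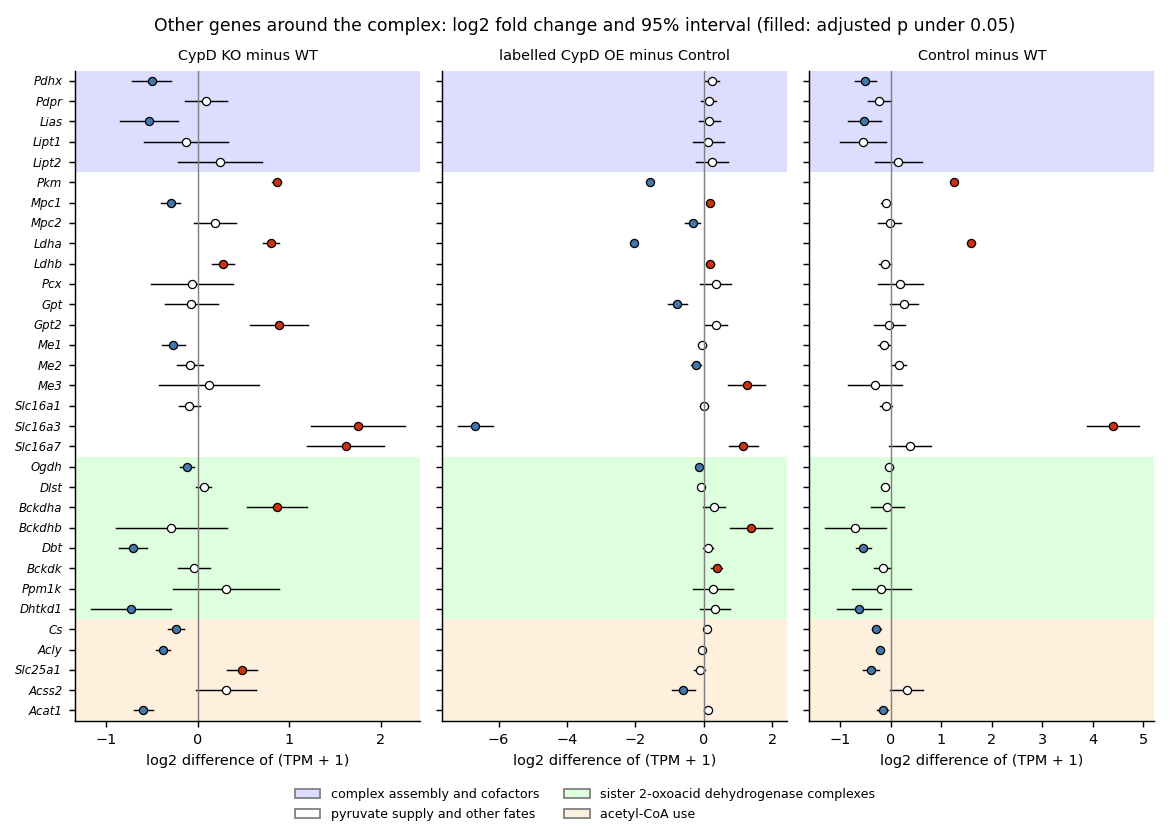
Log2 difference of (TPM + 1), horizontal axis (its range differs between panels), for the 32 tested genes of 4 lists, shaded by list; points are limma estimates, lines are 95% intervals before adjustment, and filled points passed an adjusted p of 0.05 (red higher, blue lower). Slc16a3, Ldha and Pkm are higher in the outer panels and lower in the middle one, where Slc16a3 reaches −6.68.

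The genes whose pattern across the 8 libraries was most like Pdk1 were Plod2, a collagen lysyl hydroxylase gene (Pearson r = 0.996 of log2(TPM + 1)), the long noncoding RNA Neat1 (0.992), Gabarap, which acts in autophagy (0.991), Gm49759 (0.991) and Pfkp, a phosphofructokinase gene (0.990). These values are descriptions over libraries that share groups, and r between Pdk1 and Pdk3 on the same measure was 0.788.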

How the data were processed

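The 8 total RNA libraries of B16F10 cells were depleted of ribosomal RNA and sequenced by the authors in paired reads of 150 bases. Per the submitters' processing notes, cutadapt 3.4, STAR 2.7.8a, RSEM 1.3.1 and DESeq2 1.26.0 were used with GRCm39. The deposited values are TPM, scaled by the authors to a common total in each library and written to 2 decimals. TPM keeps no read count, a few abundant transcripts lower all other values, and RSEM divides reads shared between genes, so the tests here rest on TPM and not on counts. The depth was read from the steps of low values, and 83.6% to 86.2% of those values lay within 0.15 of a whole fragment. Estimated fragment counts take the longest annotated transcript of a gene as its length, so a shorter transcript would give fewer fragments. They cover counting error only. Gene positions came from GENCODE vM39.

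For the 13526 genes that reached 1 TPM in 2 or more libraries, log2(TPM + 1) was fitted in R 4.3.3 (limma 3.58.1) with lmFit, a mean for each of 4 groups and eBayes with a trend, so that all libraries shared a single estimate of the spread. Two-sided p-values were corrected for these genes by the method of Benjamini and Hochberg (padj), with a threshold of 0.05. All 6 pairs of groups were contrasted. Tables and figures were made in Python 3.11.15, and the fit was tested on simulated data. Groups followed the sample labels, and replicate numbers the library names. Members and gene lists were chosen with earlier results of these data known, and 2 genes of the lists are not reported here. Genes named are the members, Ppif, at most 3 called genes of a list with the largest change in each comparison, and the 5 genes most correlated with Pdk1. Samd14, Pcyt1b, Map3k15, Pxk, Lamb1 and single cell type markers were named after their values had been seen. Alternatives were a pseudocount of 0.1, no filter, a minimum of 5 TPM, rescaling by the median of ratios, the 4 libraries of a comparison alone, a replicate block, eBayes without trend, and leaving out each library in turn. They were read for the first 3 comparisons only, so calls between the remaining pairs of groups were not checked under them.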

Additional observations from a re-analysis of the deposited data

How the results depend on the processing

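Pdk1 and Pdk3 kept direction and call in the 3 comparisons under every alternative, with log2 fold changes of 2.82 to 3.06, −4.69 to −3.83 and 3.62 to 3.85 for Pdk1. With single libraries left out, values that did not pass turned sign: in cells labelled CypD OE against Control, Pdk2 ran from −0.11 to 0.16, Pdhb from −0.086 to 0.11 and Dld from −0.058 to 0.0073, and in Control against WT, Pdk2 ran from −0.28 to 0.14. Over the same libraries left out, the other pathway genes called in cells labelled CypD OE against Control numbered 8 to 15. Members called ranged from 6 to 9 in CypD KO against WT, 2 to 4 in cells labelled CypD OE against Control, and 4 to 6 in Control against WT. Equal replicate numbers did not pair the libraries, with a correlation of deviations of 0.108 between CypD KO and WT and −0.00175 between CypD OE and Control. With a replicate block the members called were 7, 2 and 6 in the 3 comparisons, with Dlat lost in the first (limma padj = 0.0597) and Pdha1 in the second (0.0692) and Pdhb called lower in the third (0.0289), and all genes called fell from 6552 to 6285, from 5057 to 4735 and from 3269 to 2886. Fitting only the 4 libraries of Control against WT gave 1981 genes called instead of 3269, and leaving out 1 library gave 2009 to 2900. Depth limits Pdk2 and Pdk4, which had few or no fragments.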

Other observations

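The complexes related to pyruvate dehydrogenase, which share its architecture and its E3 subunit, were described by 9 genes, of which 8 were tested. In CypD KO against WT cells 1 was higher and 3 were lower, or 4 of 8 beside 48.4% of all genes. Bckdha, the E1 alpha subunit of the branched-chain ketoacid dehydrogenase, stood at 4.96 and 6.22 TPM in WT and 10.67 and 11.28 TPM in CypD KO libraries (log2 fold change 0.87, SE 0.14, limma padj = 0.00209), whereas Dbt, the E2 core of the same complex, stood at 33.53 and 36.21 TPM in WT and 21.58 and 20.41 TPM in CypD KO libraries (log2 fold change −0.71, SE 0.06, limma padj = 0.000174). The E1 alpha and E2 genes of that complex thus changed in opposite directions, while Pdha1 and Dlat were both lower. The Dlat call was lost with any 1 library of the comparison left out. The E1 beta gene of the branched-chain complex, Bckdhb, was not called there (log2 fold change −0.29, limma padj = 0.389). Dhtkd1, the E1 of the 2-oxoadipate complex, was lower as well (log2 fold change −0.73, limma padj = 0.0153), a call lost without WT replicate 2 (0.0842) or CypD KO replicate 2 (0.0819). In cells labelled CypD OE against Control, 2 were higher and 1 lower, or 3 of 8 beside 37.4% of all genes. Bckdhb, the E1 beta subunit, had 4.57 and 7.52 TPM in Control libraries against 19.08 and 14.95 TPM in libraries labelled CypD OE (log2 fold change 1.38, SE 0.25, limma padj = 0.00584), and Bckdk, the kinase of the branched-chain complex, was higher by a log2 fold change of 0.37 (limma padj = 0.00719), opposite in sign to Pdk1. Ogdh, the E1 of the 2-oxoglutarate complex, was lower by little (−0.15, limma padj = 0.011), a call lost without Control replicate 2 (0.0565) or CypD OE replicate 2 (0.0627). Control against WT gave 2 lower genes, or 2 of 8 beside 24.2% of all genes. They were Dhtkd1 (−0.62, limma padj = 0.0497, lost under most alternatives) and Dbt (−0.54, limma padj = 0.00184).

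The next list held 5 tested genes that use or make acetyl-CoA, or handle the citrate made from it. Of these, 1 was higher and 3 were lower in CypD KO against WT cells, where 30.1% of all genes were called higher and 18.4% lower. Acat1, the mitochondrial acetyl-CoA acetyltransferase, was at a mean of 54.2 TPM in CypD KO and 82.2 TPM in WT cells (log2 fold change −0.59, SE 0.04, limma padj = 7.27e-05), and Acly, which splits citrate into acetyl-CoA in the cytosol, at 136.7 and 178.0 TPM (−0.38, limma padj = 0.000105). Slc25a1, the mitochondrial citrate carrier, was higher, at 62.4 and 44.3 TPM (0.48, limma padj = 0.00131). In Control against WT cells 4 of the 5 were lower, where 12.1% of all genes were called lower, among them Slc25a1 (−0.39, limma padj = 0.00844), Cs, the citrate synthase (−0.29, limma padj = 0.00234), and Acly (−0.21, limma padj = 0.00393). Slc25a1 was therefore called higher in one of these comparisons and lower in the other, which share the WT libraries. In cells labelled CypD OE against Control only Acss2, which makes acetyl-CoA from acetate, was called, or 1 of 5 beside 37.4% of all genes. Its mean was 4.55 TPM in cells labelled CypD OE and 7.37 TPM in Control cells (−0.60, limma padj = 0.0142). The call was lost without Control replicate 1 or without CypD OE replicate 2.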
